A study of Mus musculus with 8 samples.

Results

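Complement is the system of plasma and cell-surface proteins that marks microbes and damaged cells for removal, and 8 of its genes are described here in cultured mouse liver endothelial cells, which form the inner wall of vessels. The genes are C3, C4b, Cfb, Cfd, C1ra, C1s1, Serping1 and Cd55, taken by their Ensembl identifiers from the 52636 genes of the deposited table. They span the opening proteases of the classical pathway, the central components, the proteases of the alternative pathway and 2 inhibitors. All 8 were found, each on 1 row. The filter on low counts kept 7 of them, which were tested among 15698 genes, and it removed Cfd.

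There were 4 groups of 2 libraries, made from polyadenylated RNA. The dKO cells with cytokines had received IL1B and TNFA 16 hours before lysis, and the dKO cells without cytokines had not. The WT cells with and without cytokines were handled in the same way. The study's design names deletion of Erg, of Fli1 or of both, which encode transcription factors of the ETS family. Deletion was induced with 48 hours of 4-OHT, a tamoxifen metabolite, within 7 days of culture. The labels put 4-OHT in the protocol of every sample, WT included, place it once in the medium and once in mice, and do not expand dKO. The sources used here give no Cre driver, alleles, ages or number of animals behind a culture. Cells were sorted as live, CD31 positive, VE-cadherin positive and CD45 negative. Total counts ran from 23009062 to 26944030 per library.

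In the classical pathway, the proteases C1r and C1s sit in the C1 complex. On activation they cut C4 and C2, and the products cut C3, the hub on which all pathways meet. In the alternative pathway, factor B joins activated C3 and is cut by factor D, which amplifies the reaction. Serping1 encodes C1 inhibitor, a secreted serpin that blocks C1r and C1s. Cd55 encodes decay-accelerating factor, a membrane protein that takes apart the enzymes that cut C3. The liver is the main source of plasma complement, chiefly from hepatocytes. Endothelial cells are exposed to complement in blood and carry regulators on their surface.

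The targeted genes and several other features set the libraries apart before any complement gene is considered. Erg stood at 34.7 and 90.2 CPM (counts per 1000000 counts of the library, after scaling between libraries) in dKO replicates 1 and 2 with cytokines and at 40.1 and 91.3 CPM in those without, against 186 to 208 CPM in the 4 WT libraries. Fli1 stood at 12.4 and 35.2 CPM and at 21.9 and 62.5 CPM in the same dKO libraries, against 91.5 to 177 CPM in WT. So dKO replicate 2 kept more of both transcripts than dKO replicate 1 under either treatment. Xist, the transcript of the inactive X chromosome, was at 171 and 224 CPM and the Y-linked Ddx3y at 117 and 90.6 CPM in the dKO replicate 2 libraries. Each of the other 6 libraries had 1 of these transcripts at 1.32 CPM or less, and libraries of the same genotype and number matched in them. The labels do not tie the libraries of a group to separate animals or cultures, so each p-value reflects the spread between these samples alone. In both genotypes the numbers differed in Xist, at 0.48 to 1.32 CPM in the libraries of replicate 1 and at 171 to 633 CPM in those of replicate 2.

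The labelled cell type was checked by markers. All 10 endothelial markers averaged 1 CPM or more in every group. Their summed level was 1519 to 2311 CPM in dKO with cytokines and 1530 to 3036 CPM in dKO without. In WT it was 5013 to 5052 CPM with cytokines and 8518 to 8627 CPM without. In dKO replicate 1, Robo4 was at 0.409 and 0.67 CPM and Cldn5 at 0.636 and 0.626 CPM with and without cytokines. In dKO replicate 2, Robo4 was at 37.1 and 62.9 CPM and Cldn5 at 5.34 and 9.48 CPM. The other endothelial markers were above 1 CPM in every library, with Kdr lowest at 1.04 CPM in dKO replicate 1 with cytokines. Of 10 stellate cell and fibroblast markers, 7 reached 1 CPM in each group, and their sum was 15233 to 19176 CPM and 13387 to 17808 CPM in dKO with and without cytokines, against 9963 to 10849 CPM and 9207 to 9328 CPM in WT. Dcn, which made up most of that sum, was already at 9024 and 9174 CPM in untreated WT cells. In untreated dKO cells it was at 13429 and 11699 CPM. The others of these 7 markers differed by more in proportion. Without cytokines, Pdgfra stood at 933 and 615 CPM in dKO replicates 1 and 2, against 2.07 and 3.67 CPM in WT. Col3a1 stood at 1831 and 332 CPM, against 24.1 and 27.2 CPM. All 7 were higher in every dKO library than in both WT libraries of the same treatment. Hepatocyte markers summed to 106 to 252 CPM in the 4 dKO libraries, against 1.69 to 4.48 CPM in the 4 WT libraries. That sum came mostly from Ahsg, while Ttr, Serpina1a, Cps1 and Cyp3a11 had 0 counts in all 4 groups and Alb had 0 counts in 3 of them and 0.0909 CPM in the library it was seen in. Leukocyte markers summed to at most 10.1 CPM in any library, with Clec4f, Tyrobp and Cd3e at 0 in all groups. The endothelial sum was lower, and the stellate cell and fibroblast and the hepatocyte sums were higher, in dKO than in WT under both treatments, and the complement genes below differed between the same groups. Their part in the results was not tested. In bulk samples, a change in the number of cells of a kind and a change in RNA per cell cannot be told apart.

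The sequence upstream of 3 members is shown because these genes moved in different directions: C3 and C1s1 were higher in dKO cells and Cd55 was lower. Each run holds the 250 bases before the transcription start, from RefSeq on GRCm38.p6, read 5′ to 3′ on the gene's strand. All 3 genes lie on the minus strand. The windows are chr17:57228137-57228386 for C3, chr6:124542360-124542609 for C1s1 and chr1:130462745-130462994 for Cd55. Capitals mark a match to the C/EBP motif TTGCNNAAT on either strand.
C3: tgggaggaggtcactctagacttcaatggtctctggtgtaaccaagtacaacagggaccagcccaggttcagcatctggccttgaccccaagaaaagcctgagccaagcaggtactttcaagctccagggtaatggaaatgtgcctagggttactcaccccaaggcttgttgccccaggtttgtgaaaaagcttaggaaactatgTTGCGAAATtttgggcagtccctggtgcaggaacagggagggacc
C1s1: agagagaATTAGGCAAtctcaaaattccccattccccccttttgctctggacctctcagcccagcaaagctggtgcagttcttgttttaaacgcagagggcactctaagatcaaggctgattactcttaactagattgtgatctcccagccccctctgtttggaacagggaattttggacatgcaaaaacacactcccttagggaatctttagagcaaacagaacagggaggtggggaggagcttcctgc
Cd55: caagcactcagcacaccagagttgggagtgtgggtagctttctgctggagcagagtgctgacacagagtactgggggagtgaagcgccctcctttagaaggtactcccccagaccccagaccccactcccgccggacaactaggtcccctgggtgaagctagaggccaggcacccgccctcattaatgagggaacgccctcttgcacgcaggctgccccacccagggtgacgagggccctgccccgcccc
The C3 match lies at bases -45 to -37 from the start. The C1s1 match lies at bases -243 to -235, on the opposite strand. RefSeq lists a second start for C1s1, and its window, chr6:124542322-124542571, held no C/EBP match, nor did those of C1ra, Cd55 and Cfd. The C1ra window, chr6:124512371-124512620, follows a RefSeq start inside the GENCODE gene and so reaches past the gene start at 124512405. The second C1s1 window also reaches past the GENCODE start of its gene. Of 32851 RefSeq windows of this length, 2.11% held such a match. The windows of C3, C1s1, Cd55, C1ra and Cfd, which were the 5 members in the table, were also searched on both strands for an NF-kB motif (in 1.41% of all windows), an interferon-stimulated response element (2.98%), the STAT motif TTCNNNGAA (7.02%), the ETS motif CCGGAAGT (2.88%) and ACCGGAAGT, a longer ETS form that contains the shorter (0.804%). None of these were found in the 5 members' windows. A match is a description and not a bound site, and the lack of a match says only that these letters are not in these windows.

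C3 was the most abundant member per length in 3 of the 4 groups. Per kilobase of exon, C3 stood at 1591 ± 638 CPM in dKO with cytokines, 1378 ± 735 CPM in dKO without, 642 ± 38.8 CPM in WT with cytokines and 406 ± 49.7 CPM in WT without (SD, n = 2 in each group). In WT without cytokines, Cd55 stood beside it at 440 ± 125 CPM per kilobase, and these did not differ beyond their spread. C1s1, Serping1 and C1ra formed a middle tier with 142 to 258 CPM per kilobase in dKO and 44.0 to 90.4 CPM per kilobase in WT. By group mean, their order in dKO was C1s1, Serping1, C1ra with cytokines and Serping1, C1s1, C1ra without. That order was not tested, and the spread between libraries cannot decide it, since these genes were measured in the same libraries. C4b and Cfb were low, at 0.891 to 22.7 CPM per kilobase in dKO and 0.401 to 3.09 CPM per kilobase in WT. C3 alone took 0.938% and 0.552% of all counts in dKO replicates 1 and 2 with cytokines and 0.949% and 0.46% in those without, against 0.216% to 0.338% in WT. It ranked between 5 and 12 among all genes by count in the dKO libraries and between 14 and 16 in the WT libraries.

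**Figure D1:**
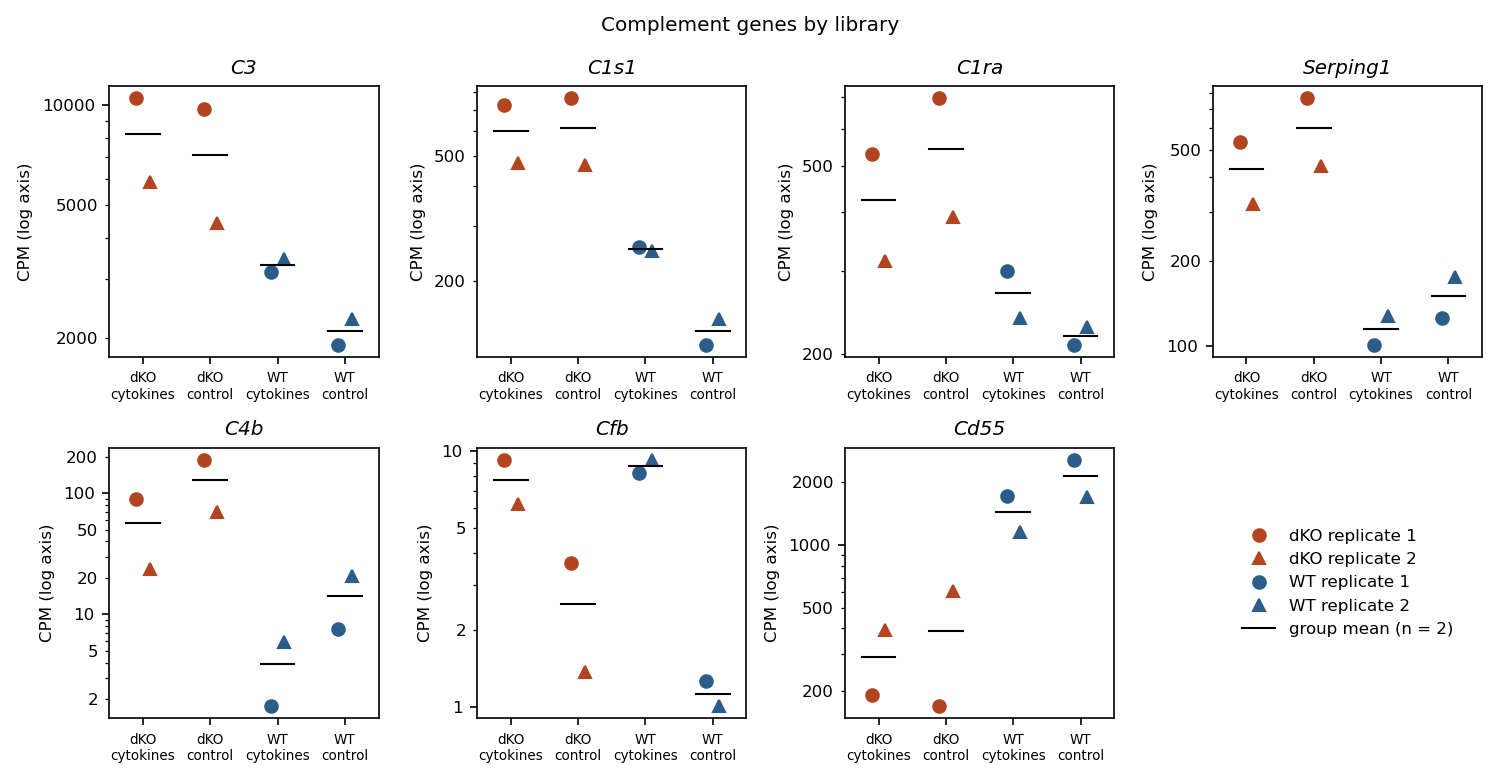
CPM (vertical, log axes that differ between panels) of the 7 tested members in the 8 libraries, by group, with circles for replicate 1, triangles for replicate 2 and a line for the mean of 2. C3, C1s1, C1ra, Serping1 and C4b lay above both WT libraries of the same treatment in every dKO library, and Cd55 lay below them.

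The comparison of dKO with WT cells asks what the labelled deletion changed in resting cells and in cells given cytokines. Without cytokines, 4 members were higher in dKO cells (C3, C1ra, C1s1 and Serping1), Cd55 was lower, and C4b and Cfb did not pass. Over all tested genes, 23% were called in this comparison, 13.4% higher and 9.66% lower, in edgeR's quasi-likelihood test at an adjusted p below 0.05. The median log2 fold change of the 7 tested members was 1.76, and that of all tested genes 0.02. All 7 had an unadjusted p below 0.05 in that test, with Cfb at 0.0499. The share of all tested genes below this unadjusted threshold was not counted.

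Both proteases of C1 were raised. C1s1 (ENSMUSG00000038521, GRCm38 chromosome 6, 124530345 to 124542359, minus strand) had 765 and 469 CPM in dKO replicates 1 and 2 without cytokines, against 125 and 151 CPM in WT. The groups did not overlap, and the lower dKO library was still well above WT. How many of all tested genes also had no overlap was not counted, so here and below this only describes the values. The difference was 4.47-fold (log2 fold change 2.16, SE 0.30, edgeR adjusted p = 0.00692). C1ra (ENSMUSG00000055172, chromosome 6, 124512405 to 124523443, plus strand), its neighbour on the chromosome, stood at 696 and 389 CPM in dKO, against 209 and 228 CPM in WT. It was 2.48-fold higher (log2 fold change 1.31, SE 0.35, edgeR adjusted p = 0.0429), again with no overlap.

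These genes have near copies next to them. Of the stretches of 50 bases in the longest C1ra transcript, 48.0% also occur in C1rb, and 24.3% of those of C1s1 occur in C1s2, so reads could be shared between copies. C1rb had 2 to 50 counts in a library and C1s2 27 to 212, far under their partners. C1s2 was also higher in dKO cells without cytokines, at 4.15 ± 0.699 CPM against 0.954 ± 0.0614 CPM in WT (log2 fold change 2.12, SE 0.24, edgeR adjusted p = 0.00425), and so was C1rb (log2 fold change 2.93, adjusted p = 0.0286), a call kept in 3 of the 8 ways to leave out 1 library.

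C3 (ENSMUSG00000024164, chromosome 17, 57203970 to 57228136, minus strand) had 9758 and 4414 CPM in dKO replicates 1 and 2 without cytokines, against 1906 and 2267 CPM in WT. Both dKO libraries were above both WT libraries, and they differed from each other by more than WT did. The difference was 3.40-fold (log2 fold change 1.76, SE 0.43, edgeR adjusted p = 0.0326). None of its stretches of 50 bases occurs in another annotated gene.

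C4b (ENSMUSG00000073418, chromosome 17, 34728380 to 34743882, minus strand) encodes C4, the substrate of C1s whose product joins that of C2 in the enzyme that cuts C3. It stood at 188 and 70.1 CPM in dKO without cytokines, against 7.53 and 20.8 CPM in WT. The groups did not overlap but each spread widely, and the difference of 9.10-fold did not pass (log2 fold change 3.19, SE 0.98, edgeR adjusted p = 0.0648, and 0.0115 in DESeq2). With C4a, 35.2% of its stretches of 50 bases are shared. C4a had 31 to 57 counts in every library, while C4b ranged between 40 and 4206.

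Cfb (ENSMUSG00000090231, chromosome 17, 34856374 to 34862518, minus strand) had 3.66 and 1.37 CPM in dKO without cytokines, against 1.26 and 1.01 CPM in WT, and its log2 fold change of 1.15 did not pass (SE 0.48, edgeR adjusted p = 0.125). Its level is uncertain. The annotated gene Gm20547 runs over the same strand and covers 79.5% of the exon bases of Cfb, and it had 0 counts in all 8 libraries. The counting program is not given in the sources used here, and whether reads in the shared bases were dropped was not tested. Cfd (ENSMUSG00000061780, chromosome 10, 79890853 to 79892655, plus strand), the gene of the protease that cuts factor B, had 3 counts in dKO replicate 1 without cytokines and 0 in each of the other 7 libraries. A count of 0 over a group allows up to 0.0672 CPM in dKO with cytokines, 0.0623 CPM in WT with cytokines and 0.0529 CPM in WT without, for counting error only.

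The inhibitors went opposite ways. Serping1 (ENSMUSG00000023224, chromosome 2, 84765387 to 84775444, minus strand) had 763 and 437 CPM in dKO without cytokines, against 126 and 176 CPM in WT. It was 3.97-fold higher (log2 fold change 1.99, SE 0.37, edgeR adjusted p = 0.0168), with no overlap. Cd55 (ENSMUSG00000026399, chromosome 1, 130439027 to 130462744, minus strand) had 170 and 607 CPM in dKO, against 2566 and 1706 CPM in WT. It was 5.50-fold lower (log2 fold change -2.46, SE 0.68, edgeR adjusted p = 0.0496), with no overlap. Its near copy Cd55b, with 10.7% of the stretches of 50 bases shared, had 0 to 4 counts in a library.

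The dKO libraries differed from each other in a regular way. For all 7 tested members, dKO replicate 2 lay closer to the WT mean than dKO replicate 1 without cytokines. The share of all tested genes that did so was not counted. On the main axis of variation over all tested genes (56.7% of the variance), these libraries lay at 54.4 and 108, against -66.9 and -61.1 in WT. With cytokines, Cfb went the other way, at 9.27 and 6.23 CPM in dKO replicates 1 and 2, against a WT mean of 8.73 CPM. What set the dKO replicates apart was not tested. Without dKO replicate 2, 6 members were called (Cfb joined, with a log2 fold change of 1.69, against 0.27 and an adjusted p of 0.689 without dKO replicate 1). The count was also 6 with both dKO replicate 2 libraries removed. The count was 1 without dKO replicate 1, 0 and 1 without WT replicates 1 and 2, 2 without either WT library given cytokines, and C1s1 was the gene called in each count of 1. Over all genes, 3617 were called with all libraries, 527 without WT replicate 1, and 5602 with both dKO replicate 2 libraries removed. The log2 fold change of C3 was 1.07 without dKO replicate 1 and 2.22 without dKO replicate 2, and that of Cd55 was -1.83 and -3.65. The Cd55 call was held in 3 of 14 alternatives and was also lost under upper-quartile scaling.

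With cytokines present, 3 members were higher in dKO cells than in WT (C1s1, Serping1 and C4b), Cd55 was lower, and C3, C1ra and Cfb did not pass. Over all tested genes, 34% were called, 18.6% higher and 15.4% lower. The members' median log2 fold change was 1.25, against 0.01 for all tested genes. This comparison and the one without cytokines have no library in common but share the estimate of the spread.

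C4b stood at 88.8 and 23.8 CPM in dKO with cytokines, against 1.76 and 5.97 CPM in WT with cytokines. It had the largest fold of the members, 14.4-fold (log2 fold change 3.85, SE 1.04, edgeR adjusted p = 0.0354). Without 1 library its log2 fold change lay between 2.60, without dKO replicate 1 given cytokines, and 4.99, without WT replicate 2 given cytokines. C1s1 had 729 and 474 CPM in dKO, against 257 and 248 CPM in WT, a log2 fold change of 1.25 (SE 0.29, edgeR adjusted p = 0.0205). Serping1 had 531 and 321 CPM in dKO, against 101 and 128 CPM in WT, a log2 fold change of 1.89 (SE 0.37, edgeR adjusted p = 0.0134). All 3 had no overlap between genotypes, which is given without a share over all tested genes.

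Cd55 stood at 192 and 393 CPM in dKO with cytokines, against 1727 and 1154 CPM in WT with cytokines (log2 fold change -2.30, SE 0.68, edgeR adjusted p = 0.045), and its log2 fold change was -2.90 without dKO replicate 2 given cytokines. C3 had 10504 and 5861 CPM in dKO, against 3159 and 3441 CPM in WT, without overlap, and missed the threshold (log2 fold change 1.31, 95% interval 0.28 to 2.34, edgeR adjusted p = 0.0555, and 0.00348 in DESeq2). C1ra had 531 and 315 CPM in dKO, against 300 and 238 CPM in WT, with a log2 fold change of 0.65 and a 95% interval from -0.19 to 1.49. Cfb had 9.27 and 6.23 CPM in dKO, against 8.20 and 9.27 CPM in WT. Its groups overlapped, and the interval of its log2 fold change of -0.17 ran from -1.22 to 0.87. Of the 4 calls, 0 were left without WT replicate 1 given cytokines, without WT replicate 2 given cytokines or without dKO replicate 1 given cytokines, and 2 (C1s1 and Serping1) without either WT library lacking cytokines. With both dKO replicate 2 libraries removed, 6 members were called, and the count over all genes was also higher, at 6671 against 5343 with all libraries.

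**Figure D2:**
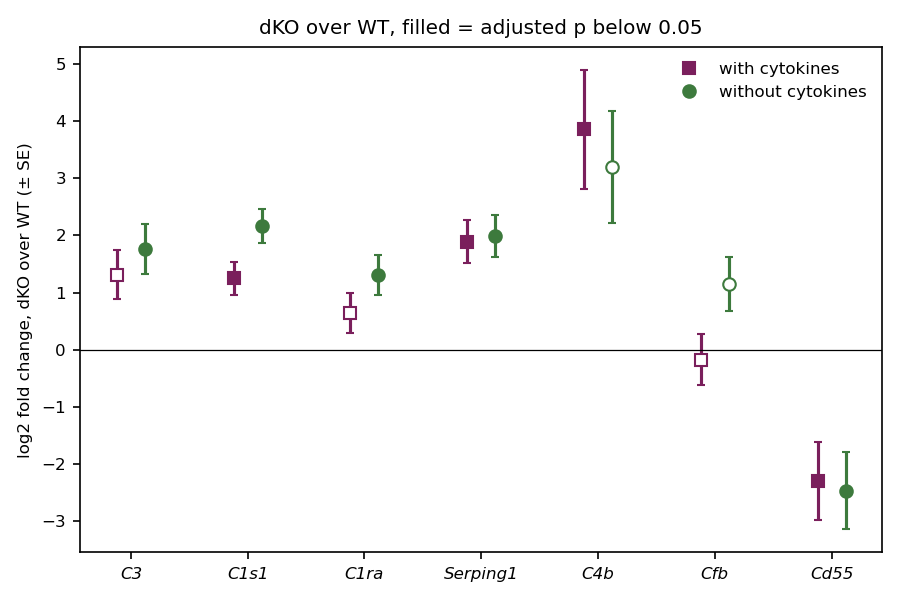
Log2 fold change of dKO over WT cells (vertical, bars show ± SE) for the 7 tested members, with cytokines (squares) and without (circles), where filled symbols passed an adjusted p of 0.05. C3, C1s1, C1ra, Serping1 and C4b lay above 0 and Cd55 below 0 under both conditions, and Cfb lay at 1.15 without and -0.17 with cytokines.

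The comparison of cells with and without cytokines asks how each genotype responded to an inflammatory stimulus. In WT cells, Cfb rose and no other member passed. Over all tested genes, 17.4% were called, 9.72% higher and 7.69% lower. Cfb stood at 8.20 and 9.27 CPM in WT replicates 1 and 2 with cytokines, against 1.26 and 1.01 CPM without. It was 7.69-fold higher (log2 fold change 2.94, SE 0.48, edgeR adjusted p = 0.0121). That call was lost without any 1 of the 4 WT libraries, with adjusted p-values of 0.0866 and 0.0954 without replicates 1 and 2 lacking cytokines and 0.0588 and 0.0537 without those given cytokines.

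Libraries of the same genotype and number matched each other, so the cytokine response was also fitted within these pairs. In that paired fit, 3 members rose and 3 fell in WT cells, where 37.9% of all tested genes were called, 19.3% higher and 18.5% lower. C3 had 1.66 and 1.52 times its untreated level in WT replicates 1 and 2 (paired log2 fold change 0.67, SE 0.13, edgeR adjusted p = 0.0045, against 0.328 unpaired). C1s1 had 2.07 and 1.64 times its untreated level (0.88, SE 0.11, adjusted p = 0.000435, against 0.0872 unpaired). The falls were C4b, at 0.234 and 0.287 times (-1.90, SE 0.16, adjusted p = 0.000106, against 0.249 unpaired), Serping1, at 0.804 and 0.728 times (-0.39, SE 0.09, adjusted p = 0.01, against 0.496), and Cd55, at 0.673 and 0.676 times (-0.57, SE 0.18, adjusted p = 0.0457, against 0.595). C1ra, at 1.44 and 1.05 times its untreated level, did not pass in either fit.

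In dKO cells no member passed in the unpaired edgeR fit, where 5.55% of all tested genes were called, 3.5% higher and 2.06% lower. Cfb had an unadjusted p of 0.0105 and an adjusted p of 0.096, and was the only member called by DESeq2 (adjusted p = 0.0142). It stood at 9.27 and 6.23 CPM in dKO replicates 1 and 2 with cytokines, against 3.66 and 1.37 CPM without. In the paired fit, where 24% of all tested genes were called, 12.7% higher and 11.3% lower, 1 member rose and 2 fell. Cfb was higher (log2 fold change 1.70, SE 0.26, adjusted p = 0.00252), at 2.53 and 4.54 times its untreated level. C4b was lower, at 0.472 and 0.339 times (-1.31, SE 0.12, adjusted p = 0.000363), and so was Serping1, at 0.696 and 0.735 times (-0.48, SE 0.09, adjusted p = 0.00577). C3, at 1.08 and 1.33 times, C1s1, at 0.953 and 1.01 times, C1ra, at 0.763 and 0.81 times, and Cd55, at 1.13 and 0.648 times, did not pass in either fit. The Cd55 ratios of the dKO pairs lay on opposite sides of 1.

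**Figure D3:**
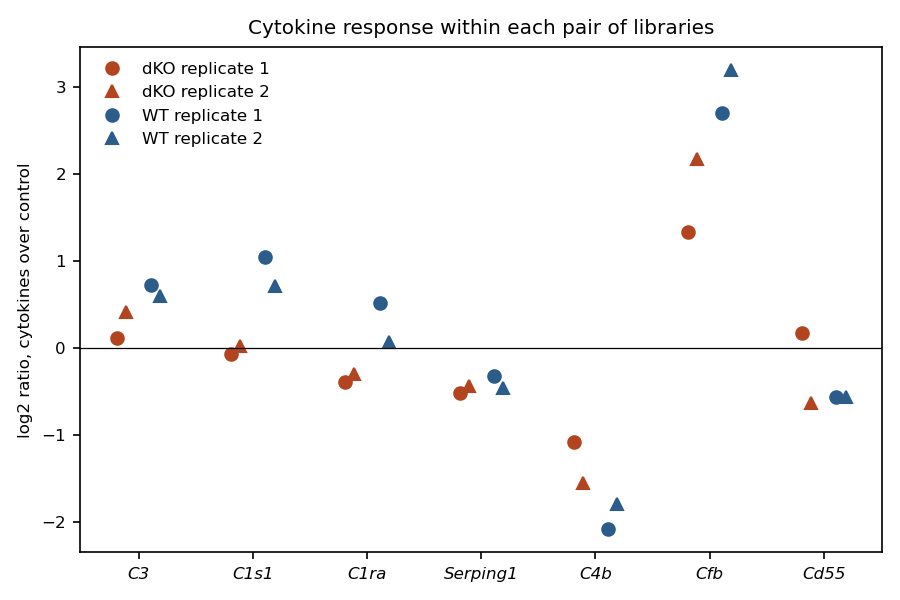
Log2 ratio of CPM with over without cytokines (vertical) within each pair of libraries of the same genotype and number, for the 7 tested members. Cfb was above 0 and C4b and Serping1 below 0 in all 4 pairs, and C1s1 was at -0.07 and 0.02 in dKO, against 1.05 and 0.71 in WT.

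Whether the genotypes responded differently was tested by the interaction, the dKO response minus the WT response. In the unpaired edgeR fit none of the 15698 tested genes passed (0%), against 75 without the filter on low counts and 391 in DESeq2. In the unpaired fit no member had an unadjusted p below 0.05, and no member passed in DESeq2 or without the filter. In the paired fit, where 6.03% of all tested genes were called, 3.24% higher and 2.80% lower, C1s1 was the only member called (log2 difference -0.91, SE 0.15, adjusted p = 0.0145, against 0.502 unpaired). C1ra had a paired difference of -0.64 (adjusted p = 0.0646) and Cfb one of -1.25 (adjusted p = 0.10). The unpaired 95% intervals remained wide, between -1.88 and 0.98 for C3 and between -2.56 and 3.89 for C4b.

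The other genes of the pathway were followed with a list of 50, of which 23 were tested. In dKO against WT cells, 6 were higher and 2 lower without cytokines, and 8 were higher and 3 lower with cytokines. The shares called over all tested genes were 23% and 34%. Their median log2 fold changes were 0.43 and 0.63. The cytokine response passed for 2 rises and 3 falls in WT and for 1 rise and 2 falls in dKO, with 5 and 9 and with 3 and 6 in the paired fits. Over all tested genes, 17.4% were called in WT and 5.55% in dKO, and 37.9% and 24% in the paired fits.

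Among the 16 listed regulators, 9 were tested. In dKO against WT cells, 2 were higher and 2 lower without cytokines, and 3 were higher and 2 lower with cytokines, beside 23% and 34% of all tested genes. They are given as secreted and membrane-bound ones, a split chosen after the values were seen. Clu, which encodes clusterin, a secreted protein that keeps the terminal complex out of membranes, stood at 15774 ± 1265 CPM in dKO against 3918 ± 126 CPM in WT with cytokines and at 19678 ± 222 CPM against 4247 ± 201 CPM without (SD, n = 2 each). Its log2 fold changes were 2.01 (SE 0.16, edgeR adjusted p = 0.00127) and 2.21 (SE 0.16, adjusted p = 0.00131).

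The surface regulators Cd59a and Cr1l were lower in dKO cells, as Cd55 was. Cd59a, the main mouse gene of CD59, which blocks assembly of the terminal complex, stood at 28.2 ± 9.16 CPM in dKO against 66.4 ± 17.8 CPM in WT with cytokines (-1.23 on the log2 scale, SE 0.31, edgeR adjusted p = 0.0276). Without cytokines it stood at 34.3 ± 8.42 CPM against 131 ± 19.7 CPM (-1.94, SE 0.32, adjusted p = 0.0116). Cr1l, which encodes Crry, a rodent inhibitor of the enzymes that cut C3, stood at 76.3 ± 24.4 CPM against 240 ± 17.6 CPM with cytokines (-1.65, SE 0.22, adjusted p = 0.00447) and at 63.4 ± 8.77 CPM against 112 ± 6.12 CPM without (-0.83, SE 0.22, adjusted p = 0.041). Without 1 library, in 8 ways, the Cr1l call was kept in 8 with cytokines and 2 without, and the Cd59a call in 5 under each condition. Cd46, another surface regulator, was at 1.74 to 3.06 CPM on average in all groups and did not pass. Csmd1, a large membrane protein gene, had 34 and 92 counts in dKO replicates 1 and 2 without cytokines, 126 together, and 0 in WT. With WT set at the floor, 3 counts over both libraries, it was at least 51.3-fold higher.

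**Figure D4:**
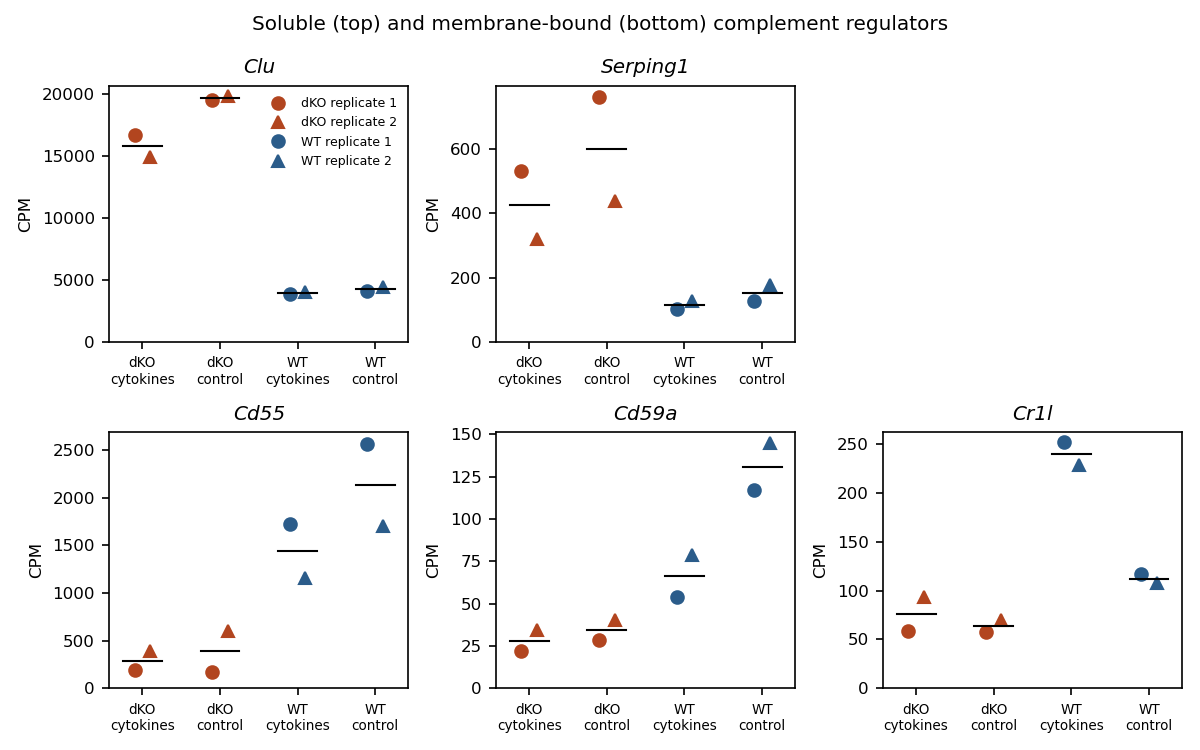
CPM (vertical, linear axes from 0 that differ between panels) of 2 secreted regulators (top row) and 3 membrane-bound regulators (bottom row) in the 8 libraries by group, with circles for replicate 1, triangles for replicate 2 and a line for the mean of 2. Clu and Serping1 lay higher, and Cd55, Cd59a and Cr1l lower, in every dKO library than in both WT libraries of the same treatment.

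With cytokines, Colec11, the gene of a secreted lectin that starts the lectin pathway, fell to 3.93 ± 0.806 CPM in dKO, against 22.8 ± 0.403 CPM without (log2 fold change -2.54, SE 0.23, edgeR adjusted p = 0.00582). In WT it fell to 1.05 ± 0.296 CPM, against 20.5 ± 1.72 CPM (-4.28, SE 0.25, adjusted p = 0.000959). Cr1l rose in WT (log2 fold change 1.09, SE 0.22, adjusted p = 0.0218) and had 0.27 in dKO (adjusted p = 0.526). C1s2 rose in both, by 1.07 (SE 0.23, adjusted p = 0.0479) in dKO and 2.18 (SE 0.24, adjusted p = 0.00409) in WT. Without 1 library, in any of the 8 ways, Colec11 was still called in both genotypes, and C1s2 in WT. The Cr1l call in WT was kept in 4 of the 8. In dKO, C1s2 was called in none of the 8.

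Parts of the cascade were close to silent. C1qa, C1qb and C1qc, which encode the recognition unit of C1, had 0 counts in all 8 libraries, as did C8a, C8b and C9 of the terminal complex and the plasma regulator gene Vtn. Hc, which encodes C5, had at most 1.72 CPM in any library. C2 stood at 7.55 ± 2.49 CPM and 7.09 ± 5.39 CPM in dKO with and without cytokines, against 5.80 ± 1.65 CPM and 2.14 ± 0.934 CPM in WT, and Gm20547 covers 42.8% of its exon bases. The C3a receptor gene C3ar1 had at most 0.27 CPM. C5ar2, a second receptor for the C5 fragment, had 2.20 and 3.57 CPM in WT with cytokines, against 32.3 and 35.3 CPM in untreated WT. In dKO replicates 1 and 2 it had 0 and 1.33 CPM with cytokines, against 0.223 and 10.1 CPM without. In WT the fall passed in the paired fit (log2 fold change -3.56, SE 0.19, edgeR adjusted p = 9.43e-06). It passed there in dKO too (-2.96, SE 0.31, adjusted p = 0.000517). Neither fall passed in the unpaired fit (adjusted p = 0.173 in WT and 0.366 in dKO).

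The genes whose pattern over the 8 libraries came nearest to each member were found by the root mean square difference of log2(CPM + 1), each gene centred on its own mean, among 9923 genes. C3 and C1s1 were near each other, at 0.21, and both had Mthfd2l as the nearest gene, at 0.15 and 0.16. St6gal1 and Runx1 followed for C3, at 0.18 each, and Car11 for C1s1, at 0.19. C1ra was nearest to Resf1 (0.17), Serping1 to Frk (0.17), Lgalsl (0.19) and Dbp (0.21), and C4b to Adh1 (0.39), Prg4 (0.45) and Htra1 (0.47). Cfb lay nearest to Ces2g (0.23) and to Lacc1 and Serpinb1a (0.25 each). Cd55 lay nearest to Cnr2 (0.22), Sez6l2 (0.28) and Arhgef15 (0.30), and between 1.94 and 3.21 from the other members.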

How the data were processed

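A deposited table held RNA-seq counts for 8 libraries. These counts, as the authors deposited them, were not normalized: they are integers and their sums differ between libraries. The submitters' processing notes name FastQC 0.11.5, STAR 2.7.6a and GRCm38 without roles. The sources used here give no counting program, annotation or strand setting, and per the labels' protocols an unstranded or a stranded kit was used, so genes overlapping on opposite strands may share counts. Groups and replicate numbers follow the sample titles.

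In R 4.3.3, edgeR 4.0.16 was run with TMM scaling, the filterByExpr filter and a robust quasi-likelihood fit over all 8 libraries with 1 coefficient per group (4 residual degrees of freedom, common biological coefficient of variation 24.3%). Each contrast was tested two-sided, and p-values were adjusted by the Benjamini-Hochberg method over the 15698 tested genes. The threshold was 0.05. The SE is the log2 fold change divided by the root of the F statistic. CPM use TMM-scaled library sizes. Floors are 3 counts over a group and cover counting error only. Coordinates and exon lengths are from GENCODE M21 (GRCm38).

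Pairing was checked by the correlation, across genes, of deviations from the group means. For libraries of the same number it was 0.41 between the WT groups, 0.67 between the dKO groups and 0.01 to 0.13 across genotypes. The library names of the labels share a stem within a genotype and number, and Xist and Ddx3y matched, so the numbers were taken to pair libraries within a genotype (paired fit, 2 residual degrees of freedom). The labels do not state this.

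The members, the lists of other complement genes and markers, the motifs and the tests were chosen with earlier results of these data known. Named genes were all members, listed genes that passed or are near copies of members, and, for each member, among the 3 genes nearest in pattern with at least 10 CPM in a group. Some genes that meet this rule are not reported here. Genes chosen otherwise were Cd46, C2, C5ar2, C3ar1 and those at 0 counts. Alternatives were DESeq2 1.42.0, other scaling, no filter, replicate blocks, leaving out libraries and fitting 4 libraries.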

Additional observations from a re-analysis of the deposited data

Results flagged for a closer look

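In the paired fit, the cytokine response differed between genotypes for 1 of 7 tested members and 4 of 23 other tested complement genes by the test of the difference itself (dKO response minus WT response). Over all tested genes, 6.03% were called there. C1s1 had -0.91 on the log2 scale (SE 0.15, edgeR adjusted p = 0.0145). Cr1l had -0.85 (SE 0.14, adjusted p = 0.016), Cd59a 0.71 (SE 0.13, adjusted p = 0.0249), Colec11 1.73 (SE 0.30, adjusted p = 0.0179) and Susd4, a membrane regulator gene, 1.95 (SE 0.40, adjusted p = 0.0318). None of the 5 passed in the unpaired edgeR fit, and Colec11 was the only one to pass in DESeq2 (adjusted p = 0.00144) or in edgeR without the filter on low counts.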

How the results depend on the processing

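Of the 8 members, 5 were called in dKO against WT without cytokines, 4 with cytokines, 1 for cytokines in WT, and 0 for cytokines in dKO and for the interaction. Without the filter on low counts, 2 were called in each genotype comparison, which were C1s1 and Serping1. Fitting only the 4 libraries compared gave 2 for dKO against WT without cytokines and 3 for cytokines in WT. DESeq2 gave 2 for cytokines in WT and 1 in dKO. Without both dKO replicate 2 libraries, 3 were called for cytokines in WT. Pairing within genotype as a replicate block gave 6 for cytokines in WT, 3 in dKO and 1 for the interaction, and a block by number over all libraries gave 1 for cytokines in dKO. That block changed no other count by over 1.5 times. Under each of the 8 ways to leave out 1 library, the counts lay between 0 and 6 for dKO against WT without cytokines, 0 and 5 with cytokines and 0 and 2 for cytokines in WT, and stayed at 0 for cytokines in dKO and the interaction. Where this left a group with 1 library, that library was taken to vary like the others.

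C1s1 without cytokines kept its call in 13 of 14 alternatives, Serping1 in 11, C3 and C1ra in 7 and Cd55 in 3. With cytokines C1s1 and Serping1 kept theirs in 11 of 14, and C4b and Cd55 in 6. No called member changed direction. Among values that did not pass, without both dKO replicate 2 libraries Cfb with cytokines (dKO against WT) was 0.09 and Cd55 (cytokines in dKO) 0.17 on the log2 scale. Without 1 library, cytokine changes in dKO ranged between -0.28 and 0.89 for C3, -0.79 and 0.12 for C1ra, -0.38 and 0.36 for C1s1, and -1.05 and 0.78 for Cd55. Cfb in dKO against WT with cytokines ranged between -0.5 and 0.09. Interactions ranged between -0.94 and 0.25 for C3, -0.58 and 1.81 for C4b, -0.51 and 0.38 for Serping1, and -0.46 and 1.35 for Cd55. The cause was not tested.

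Of the 23 tested genes of the wider list, the counts called without 1 library lay between 2 and 9 for dKO against WT without cytokines (8 with all libraries), 4 and 11 with cytokines (11), 3 and 6 for cytokines in WT (5) and 1 and 2 in dKO (3). At 2 libraries a group, a difference that missed the threshold is not shown to be absent.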
